A study of Mus musculus with 28 samples.

Results

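The genes described here are the Wnt ligands, the Frizzled receptors and the secreted modulators of the Wnt pathway, with a few readouts of the pathway. They were chosen by name from the rows of the count table: every gene named as a Wnt ligand, a Frizzled, a secreted Frizzled-related protein (Sfrp), a Dickkopf (Dkk) or an R-spondin (Rspo), together with Lef1, Axin2, Tcf7, Lgr5 and Wif1. This gave 46 of the 28244 genes measured. By role they fall into 19 ligands, 10 Frizzleds, 5 secreted inhibitors that bind Wnt proteins (4 Sfrp genes and Wif1), 4 Dickkopfs, 5 genes of the R-spondin axis (4 R-spondins and their receptor Lgr5) and 3 targets or effectors (Axin2, Lef1 and Tcf7).

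Wnt proteins are secreted lipid-modified ligands that bind Frizzled receptors and their Lrp co-receptors, which stabilises beta-catenin so that it can act with Lef/Tcf factors on target genes such as Axin2. Secreted Frizzled-related proteins and Wif1 bind the ligands outside the cell, and several Dickkopf proteins block the co-receptors. R-spondins acting through Lgr receptors keep Frizzleds on the cell surface. In the embryonic neural tube and in neural stem cells the pathway is known for roles in dorsal patterning, in proliferation and in the specification of the neural crest.

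The study asked whether cells grown from peripheral tissues, termed peripheral neural stem cells (pNSCs), resemble neural stem cells of the brain (brain NSCs). PolyA-selected RNA of mouse cells or tissue was sequenced in 28 samples of 11 groups. The labels give the strain C57BL/6 for all samples, whereas the methods of the study name CD1, or its crosses with C3H, for wild-type mice and for the breeding of the transgenic lines. A first experiment compared pNSCs of the tail and of the lung with brain NSCs and with cells of the same 2 tissues (tail cells and lung cells), at n = 2 for each group. The labels of these samples name no reporter line, and the methods of the study describe matching groups from Nes-GFP mice. A second experiment used Sox2-GFP knock-in mice, with brain NSCs and pNSCs of the lung (n = 3 each), which were compared also with the same 2 samples of lung cells. The other experiment held brain NSCs, tail pNSCs and dorsal root ganglion (DRG) pNSCs from Wnt1Cre-mTmG mice and DRG neural crest stem cells (NCSCs), with n = 3 each. In the Wnt1Cre-mTmG line the Wnt1 promoter drives Cre, so that neural crest progeny become GFP-positive, and the pNSCs were Tomato-positive and GFP-negative. The NCSCs came from adult wild-type DRG. Donors were adult (4 to 6 weeks) or postnatal (day 1 to 5) mice. The labels do not give the age of each sample, and the methods describe adult lung and postnatal tail for the Nes-GFP lines, and postnatal tissue for the Sox2-GFP lung and the Wnt1Cre-mTmG tail and DRG. Neural stem cells were cultured in medium with 10 ng/ml EGF and 10 ng/ml bFGF, and pNSC clusters that appeared after about 3 weeks were picked singly, so a line may descend from few founder cells. The study calls its replicates biological, but no label states that they came from separate animals or cultures, and the p-values then measure only the spread between these samples.

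Each sample held between 9808246 and 22637031 counts. Levels are given as cpm (counts scaled by library size with TMM), and 3 counts, used as the floor of detection, correspond to 0.130 to 0.295 cpm. In the Wnt1Cre-mTmG experiment the brain NSC and DRG pNSC samples held 9808246 to 11431445 counts, and the tail pNSC and NCSC samples 17051461 to 22548268. There the floor was 0.253 to 0.295 cpm in brain NSCs and DRG pNSCs and 0.131 to 0.175 cpm in tail pNSCs and NCSCs. Genes near the floor thus pass it more easily in the deeper groups. DRG NCSC replicate 3 stood apart from the other 2 NCSC samples: squared differences were 16.8 and 21.0 times the counting error, against 1.09 to 2.82 for the other replicate pairs. Results on NCSCs are therefore given with and without it where the call or the value moves. The sum of 6 NSC markers (Sox2, Nes, Olig2, Pax6, Sox1 and Fabp7) was 4346 to 6373 cpm in the samples of the 8 neural groups, 1443 to 1826 cpm in NCSCs, 291 to 316 cpm in lung cells and 86.4 to 89.9 cpm in tail cells. The sum of 5 neural crest and Schwann cell markers was 3305 to 3407 cpm in NCSCs and at most 71.7 cpm in any neural sample.

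Before the values, the promoters of 3 genes described in several comparisons below are shown. Axin2, a negative feedback regulator and a widely used readout of beta-catenin signalling, and Wif1, which binds Wnt proteins, were both higher in lung pNSCs than in brain NSCs of both experiments. Wnt7a, a ligand known from the developing forebrain, had the largest fold of the genes that were lower in NCSCs than in brain NSCs. The sequences are from RefSeq promoters of GRCm38.p6 and stop before the first base of the annotated gene. They are written 5′ to 3′ on the strand of the gene, in lower case. Capitals mark CTTTG, the core letters that Lef/Tcf factors recognise, searched on both strands. Axin2 lies at chr11:108920349-108950783 on the plus strand and overlaps Gm11670 on the other strand, Wif1 lies at chr10:121033960-121100650 on the plus strand, and Wnt7a lies at chr6:91363981-91411363 on the minus strand. The stretches shown are chr11:108920099-108920348, chr10:121033754-121033959 and chr6:91411364-91411603.
Axin2: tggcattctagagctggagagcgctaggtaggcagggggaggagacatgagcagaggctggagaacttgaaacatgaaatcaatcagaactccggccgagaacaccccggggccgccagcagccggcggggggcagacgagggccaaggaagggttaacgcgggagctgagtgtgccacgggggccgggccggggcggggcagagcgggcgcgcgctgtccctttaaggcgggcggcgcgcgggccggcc
Wif1: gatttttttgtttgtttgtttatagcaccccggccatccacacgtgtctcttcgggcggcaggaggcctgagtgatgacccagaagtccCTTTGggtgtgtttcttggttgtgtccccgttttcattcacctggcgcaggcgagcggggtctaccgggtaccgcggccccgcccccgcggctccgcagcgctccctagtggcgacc
Wnt7a: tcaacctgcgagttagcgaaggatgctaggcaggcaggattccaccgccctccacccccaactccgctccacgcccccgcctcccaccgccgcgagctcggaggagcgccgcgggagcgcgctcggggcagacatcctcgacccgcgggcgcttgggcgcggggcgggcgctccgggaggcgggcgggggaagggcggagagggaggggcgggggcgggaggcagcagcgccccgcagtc

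The Wif1 stretch holds 1 CTTTG, and the Axin2 and Wnt7a stretches hold none. In all, 31 of the 46 genes matched a RefSeq promoter entry, giving 38 promoters. CTTTG stood in 17 of these 38 (44.7%) and in 15958 of all 32851 promoters (48.6%). The longer forms CTTTGAT and CTTTGAA, which contain the shorter one, stood in 3 of the 38 (7.89%, those of Dkk1, Wnt11 and Wnt5b) and in 2457 of all (7.48%). These shares were alike, whereas the base composition was not: the 250 bases before the start held a median of 21.5 CpG in the 38 promoters against 6 over all, and a median GC content of 66.8% against 52.4%. These are descriptions of sequence windows and say nothing of what binds there.

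The neural groups used a narrow set of ligands and a broad set of receptors. Of the 46 genes, 19 had a mean of at least 1 cpm in all 8 neural groups, and 12 had at least 10 cpm in all of them: Wnt5a, Wnt7a, Wnt7b, Fzd1, Fzd2, Fzd3, Fzd4, Fzd7, Fzd9, Fzd10, Lgr5 and Axin2. The set of 12 thus holds 3 of the 19 ligands and 7 of the 10 Frizzleds, and none of the secreted inhibitors or Dickkopfs. A further 9 genes reached 1 cpm in some neural groups, and 18 were under 1 cpm in all of them. Of these 18, 14 reached 1 cpm in lung cells, tail cells or NCSCs, and Dkk4, Wnt1, Wnt8b and Wnt9b reached it in no group. In 12 genes no neural sample had more than 3 counts: 8 ligands (Wnt1, Wnt2, Wnt3a, Wnt8a, Wnt9b, Wnt10b, Wnt11 and Wnt16), Dkk1, Dkk2, Dkk4 and Rspo4. Wnt3a, a ligand that activates beta-catenin signalling in the dorsal midline, had 0 counts in every neural and NCSC sample. More genes were over 3 counts in every sample of tail cells (43) and lung cells (38) than in NCSCs (33) or in any neural group (24 to 30), and over all genes the shares ran the same way, at 56.7% and 57.5%, 52.1% and 46.4% to 50%. In these bulk samples, fewer cells of a type and less RNA per cell cannot be told apart.

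**Figure D1:**
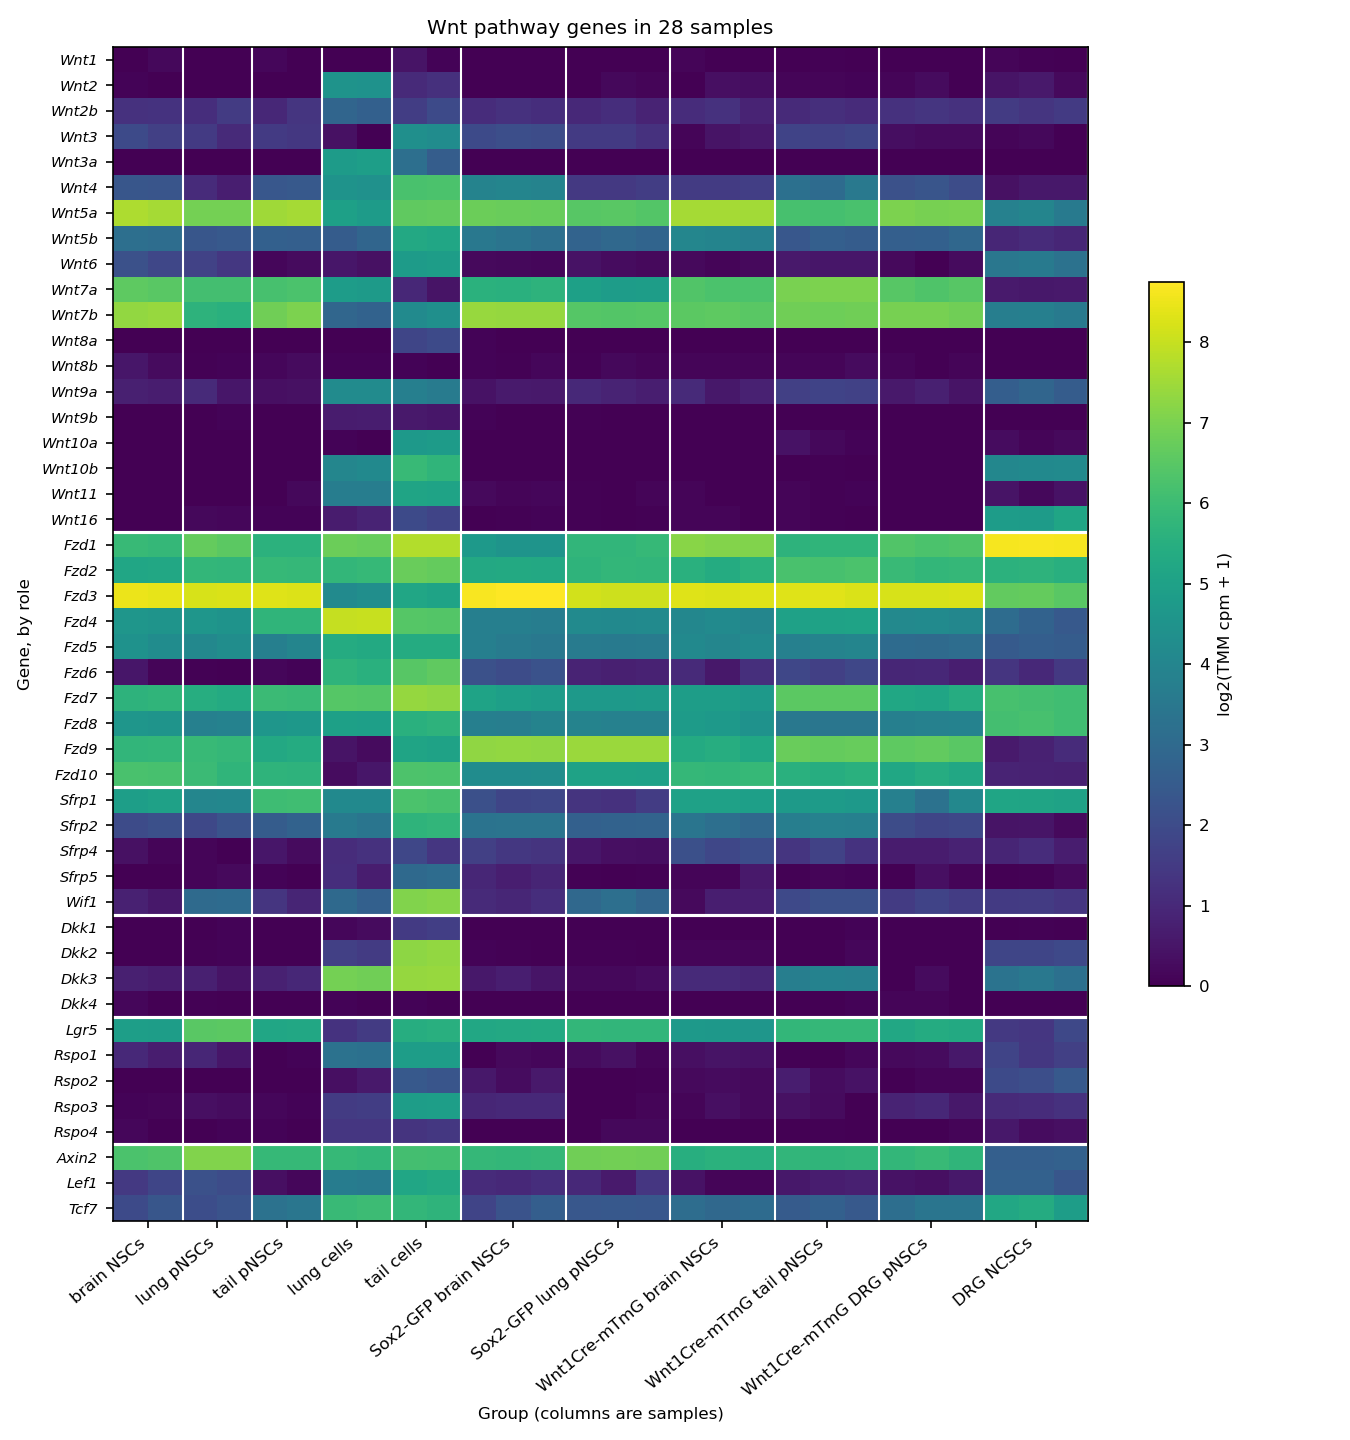
Level of the 46 genes (rows, by role) in the 28 samples (columns, by group), as log2(cpm + 1) on a colour scale. Wnt5a, Wnt7a and Wnt7b are the only ligand rows that reach at least 10 cpm in all 8 neural groups, whereas 7 Frizzled rows reach at least 10 cpm in all 8 neural groups.

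Wnt5a, a ligand best known for beta-catenin-independent signalling, was between 71.2 and 205 cpm in the neural samples. Wnt7b, the close paralogue of Wnt7a, was between 46.4 and 168 cpm, and Wnt7a between 27.8 and 129 cpm. To compare levels between genes, cpm was divided by the exonic length of the gene in kb. On this scale Wnt5a, Wnt7a and Wnt7b together made up 88.0% to 94.8% of the summed ligand level in the 8 neural groups, 24.5% in lung cells, 14.8% in tail cells and 18.4% in NCSCs. Wnt7b was first among the ligands in the brain NSCs and tail pNSCs of the first experiment and in both Sox2-GFP groups, and Wnt7a was first in the lung pNSCs of the first experiment and in the 3 neural groups of the Wnt1Cre-mTmG experiment. Outside the neural groups another ligand came first: Wnt3a in lung cells (18.4% of the ligand level), Wnt4 in tail cells (16.2%) and Wnt16 in NCSCs (29.2%). The summed ligand level per kb was 23.4 in NCSCs, 41.6 to 94.9 in neural groups, 54.9 in lung cells and 111 in tail cells.

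**Figure D2:**
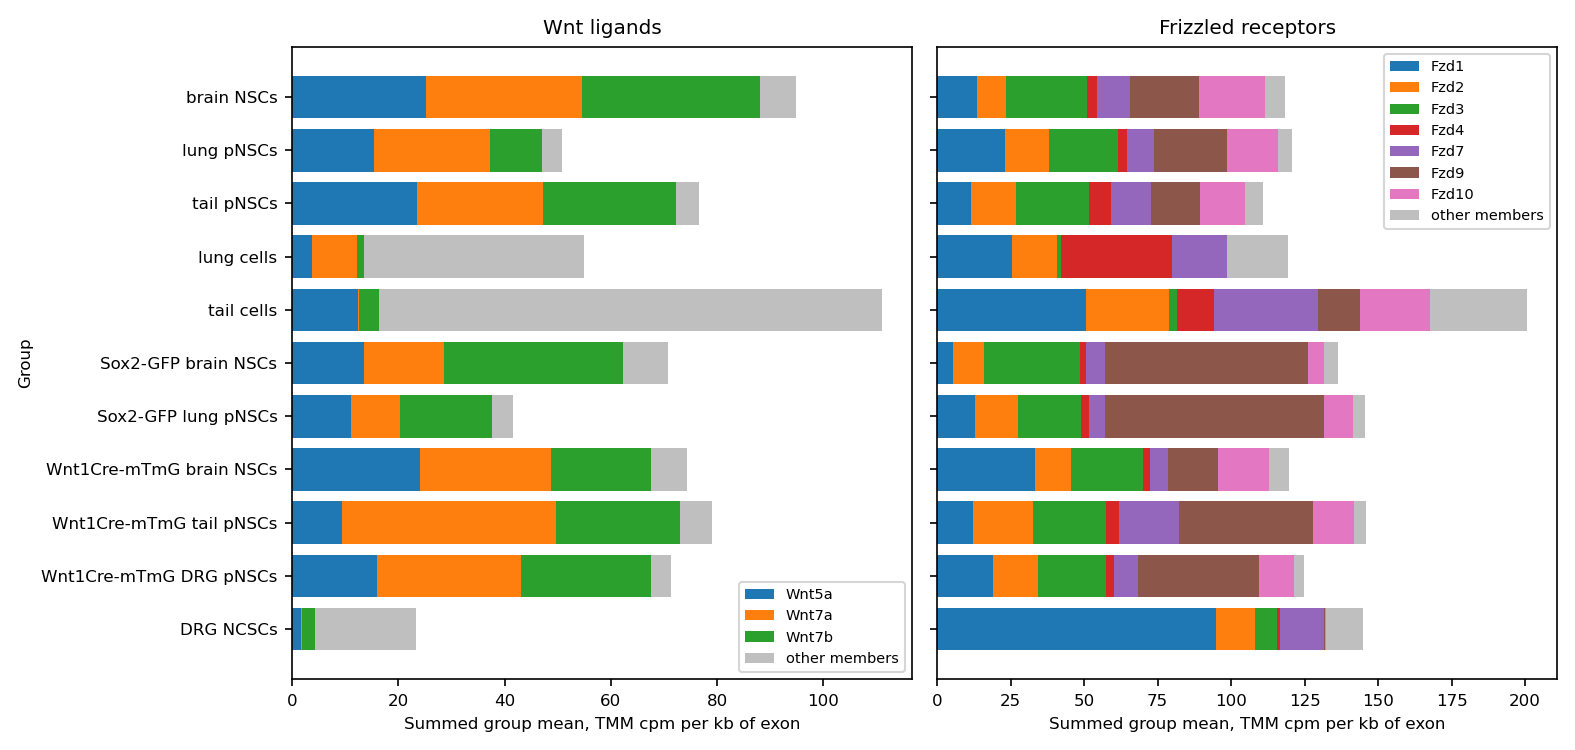
Stacked bars of the mean level per kb of exon (cpm per kb) in each of the 11 groups, for the ligands (Wnt5a, Wnt7a, Wnt7b and all others) and for the Frizzleds. The bars give group means without error. Wnt5a, Wnt7a and Wnt7b fill 88.0% or more of each neural bar and at most 24.5% of the bars of lung cells, tail cells and NCSCs.

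Among the Frizzleds, Fzd3, a receptor known for axon guidance and planar polarity, was high in all neural groups, between 270 and 429 cpm per sample. Its lowest and highest neural group means differed by 1.52-fold, the smallest range of any Frizzled. Fzd3 lies at chr14:65192449-65262463 and overlaps Gm27263 on the same strand, so that its counts carry that uncertainty. Fzd9 and Fzd10, receptors known from the hippocampus and the dorsal neural tube, ran from 36.5 to 172 cpm and from 17.9 to 74 cpm in neural samples. Per kb, Fzd9 made up 50.5% and 51.2% of the Frizzled level in the brain NSCs and lung pNSCs of Sox2-GFP mice, 33.1% in DRG pNSCs and 31.1% in Wnt1Cre-mTmG tail pNSCs. Fzd3 was first in the brain NSCs (23.3%) and tail pNSCs (22.1%) of the first experiment, and Fzd1 was first in Wnt1Cre-mTmG brain NSCs (27.8%), in tail cells (25.1%) and in NCSCs, where it made up 65.6%.

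The first question was how pNSCs differed from brain NSCs, and it was asked in 5 comparisons. A gene was called when edgeR's quasi-likelihood test gave a Benjamini-Hochberg adjusted p under 0.05 over all genes tested and the log2 fold change was at least 1 in size. Lung pNSCs share their brain NSC samples with tail pNSCs in the first experiment, and Wnt1Cre-mTmG tail and DRG pNSCs share theirs. Over the 5 comparisons 28 of the 43 genes tested in at least 1 of them were called at least once (65.1%), against 5291 of all 17225 genes so tested (30.7%). Of the 28, 11 were called only as higher in pNSCs, 9 only as lower and 8 in both directions in different comparisons. Of the 5291, 1678 were called only as higher, 2294 only as lower and 1319 in both directions. The other 18 of the 46 genes were called in none, of which 8 were tested in all 5 and the rest fell to the filter on low counts in 1 or more.

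**Figure D3:**
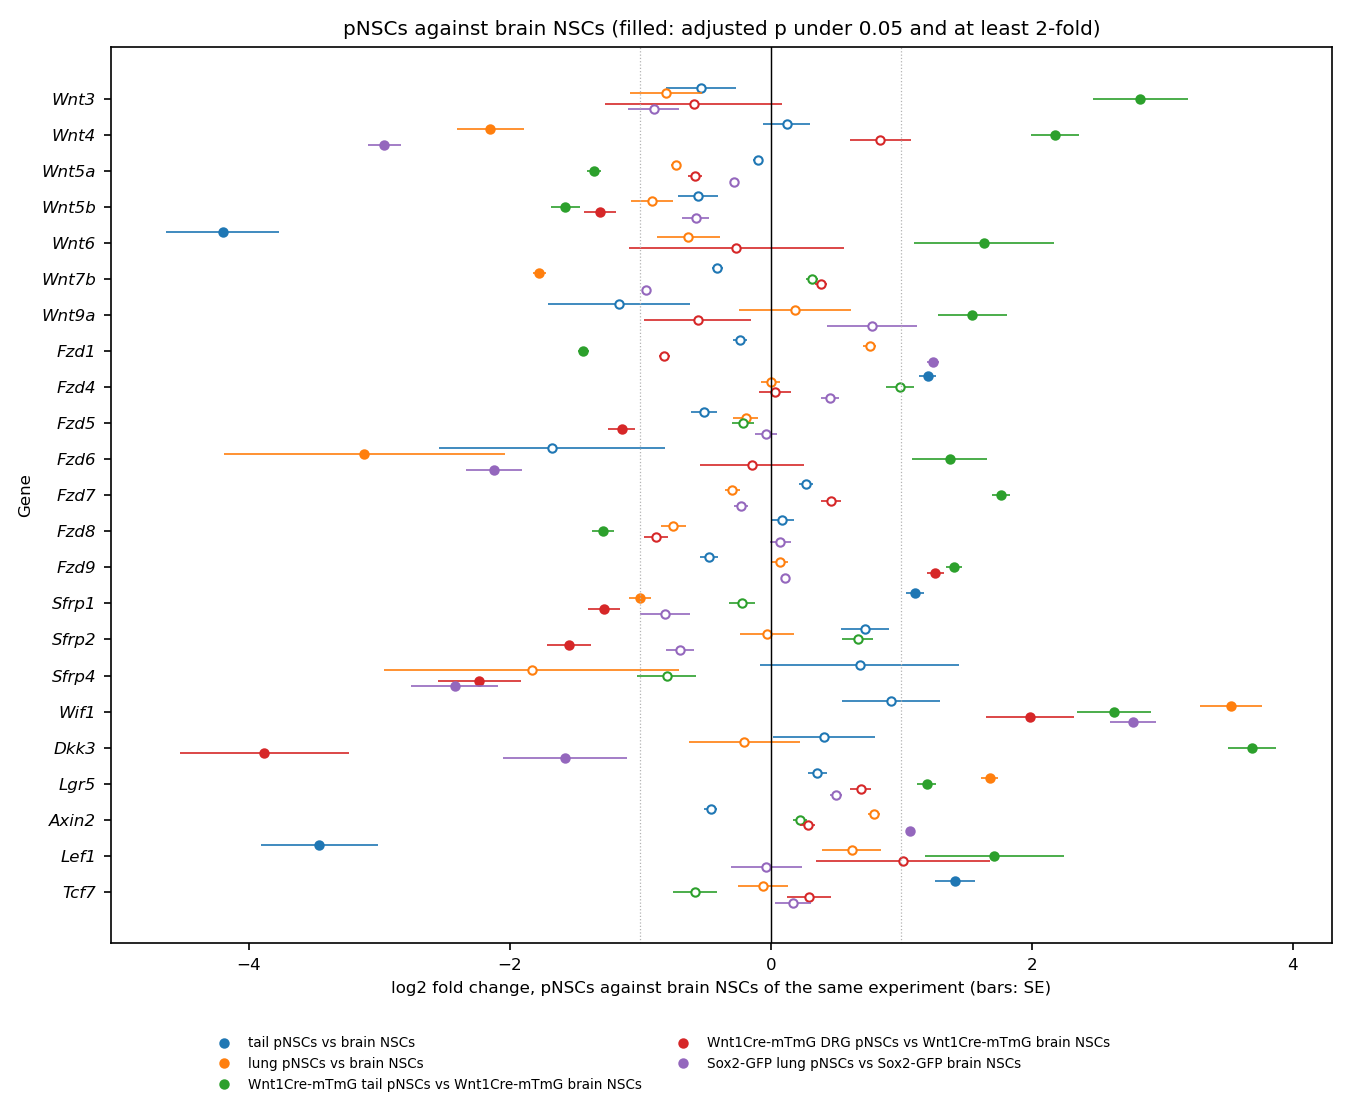
Log2 fold change of pNSCs over brain NSCs with its standard error (horizontal axis) in 5 comparisons, for genes called in at least 1 of them whose highest neural group mean is at least 1 cpm. Filled points are called and dotted lines mark log2 fold changes of 1 and -1. Wif1 lies to the right of 0 in all 5 comparisons and is called in 4.

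In lung pNSCs of the first experiment, Wif1 and Lgr5 rose against brain NSCs, and Wnt4, Wnt7b and Sfrp1 fell. In lung pNSCs of Sox2-GFP mice, Wif1, Axin2 and Fzd1 rose, and Wnt4, Sfrp4 and Fzd6 fell. In the first experiment 6 of 43 genes tested were called, 2 higher and 4 lower, where 8.71% of all genes were (4.56% higher and 4.15% lower). In the Sox2-GFP experiment it was 11 of 38, 5 higher and 6 lower, where 15.7% of all genes were (5.76% higher and 9.99% lower). Some genes entered these tests only through lung or tail cells: 13 of the 43 and 8 of the 38 were at or under 3 counts in every lung pNSC and brain NSC sample. Over the 30 others in each experiment, 6 and 9 were called, where 10.1% and 17.1% of all genes over that floor were. The median log2 fold change of these 30 was -0.22 against -0.02 over all such genes in the first experiment and -0.25 against 0.00 in the second.

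Axin2 was at 136 and 137 cpm in lung pNSCs against 76.5 and 79.5 cpm in brain NSCs. In Sox2-GFP mice it was at 115, 117 and 115 cpm in lung pNSCs against 55.8, 53.9 and 55.7 cpm in brain NSCs. All lung pNSC samples were above all brain NSC samples in both lines. The log2 fold change of Axin2 was 0.79 (SE 0.05, adjusted p = 1.22e-65) in the first experiment, under the limit on the fold, and 1.07 (SE 0.03, adjusted p = 5.34e-218) in the second. Wif1 was low but higher in lung pNSCs in both: 7.16 and 7.42 cpm against 0.761 and 0.487 cpm in the first experiment. In Sox2-GFP mice Wif1 was at 6.84, 8.13 and 6.48 cpm in lung pNSCs against 1.04, 0.908 and 1.2 cpm in brain NSCs. These are rises of 11.5-fold (log2 3.53, SE 0.24, adjusted p = 6.94e-48) and 6.86-fold (log2 2.78, SE 0.18, adjusted p = 2.07e-55), with no overlap between the groups. Lung cells themselves had 7.01 and 5.36 cpm of Wif1, a level from which lung pNSCs of neither line differed past the threshold (adjusted p = 0.216 and 0.206). The promoter of Wif1 is the one shown above with a CTTTG.

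Lgr5, a receptor for R-spondins that marks stem cells of several epithelia, was at 89.8 and 93 cpm in lung pNSCs against 28.7 and 28.1 cpm in brain NSCs, a 3.20-fold rise (log2 1.68, SE 0.07, adjusted p = 5.6e-141). Its gene (chr10:115450311-115587780) overlaps A930009A15Rik on the other strand. In Sox2-GFP mice Lgr5 was at 54.1, 52.9 and 53.6 cpm in lung pNSCs against 36.8, 38.3 and 38.4 cpm in brain NSCs. The groups did not overlap there either, but the log2 fold change of 0.50 (SE 0.05, adjusted p = 7.65e-28) was under the limit. Lef1, which acts with beta-catenin on target genes, stayed at 0.558 to 3.46 cpm in these groups. Its log2 fold changes were 0.62 (SE 0.23, adjusted p = 0.0179) and -0.04 (SE 0.27, adjusted p = 0.958). Tcf7, a related factor, was at 2.48 to 5.1 cpm, with log2 fold changes of -0.06 (SE 0.19, adjusted p = 0.909) and 0.17 (SE 0.14, adjusted p = 0.288).

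Apart from Wnt2, which is at few counts, the ligands called were lower in lung pNSCs. Wnt7b was at 49.9 and 46.4 cpm in lung pNSCs against 160 and 168 cpm in brain NSCs, a fall of 3.42-fold (log2 -1.77, SE 0.05, adjusted p = 7.7e-278). In Sox2-GFP mice it was at 85.7, 83.5 and 85.9 cpm against 166, 164 and 165 cpm, a log2 fold change of -0.96 (SE 0.03, adjusted p = 1.03e-245) just under the limit. The Wnt7b gene (chr15:85535437-85582473) overlaps AU022754 on the other strand. Wnt4, a ligand known from kidney and gonad development, was at 1.09 and 0.67 cpm against 4.06 and 3.9 cpm in the first experiment, a 4.43-fold fall (log2 -2.15, SE 0.26, adjusted p = 1.14e-15). In Sox2-GFP mice Wnt4 was at 1.72, 1.77 and 2 cpm against 13.9, 14.7 and 14.1 cpm, a 7.79-fold fall (log2 -2.96, SE 0.12, adjusted p = 5.44e-124). In every one of these comparisons the pNSC samples lay below the brain NSC samples.

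Among receptors and inhibitors, Fzd1, a receptor for several ligands, rose in Sox2-GFP lung pNSCs: 52.9, 53.8 and 57 cpm against 25.2, 22.2 and 22.1 cpm (log2 1.24, SE 0.05, adjusted p = 2.72e-144). Fzd6, a receptor known for tissue polarity, fell there from 3.52, 3.07 and 3.61 cpm to 0.814, 0.697 and 0.799 cpm (log2 -2.12, SE 0.21, adjusted p = 1.3e-22). Sfrp4 fell from 2.13, 1.69 and 1.49 cpm to 0.431, 0.279 and 0.266 cpm (log2 -2.42, SE 0.33, adjusted p = 1e-12). In the first experiment Sfrp1, a secreted Wnt inhibitor, was at 15 and 15.5 cpm against 29.3 and 31.3 cpm. This fall sat on the limit (log2 -1.001, SE 0.09, adjusted p = 3.98e-30), and with DESeq2 or with another scaling its log2 fold change was -0.98 and it was no longer called. The other calls rested on few counts. Fzd6 was 10.7-fold lower in lung pNSCs of the first experiment (counting interval 1.55 to 459), a call lost with DESeq2 (adjusted p = 0.0672) and without brain NSC replicate 1 or lung pNSC replicate 2. In Sox2-GFP lung pNSCs the R-spondin Rspo3 was 32.0-fold lower (8.45 to 270) and Sfrp5 was 25.8-fold lower (6.75 to 219). Dkk3 also fell there, from 0.461, 0.649 and 0.402 cpm to 0.144, 0.139 and 0.222 cpm (log2 -1.58, SE 0.48, adjusted p = 0.00178). Rspo4 and Wnt2 were called as higher in Sox2-GFP lung pNSCs on at most 3 counts per sample, and no fold is given for them. The Wnt2 call was lost without any single brain NSC replicate and without lung pNSC replicate 2 or 3. The Rspo4 call was lost without brain NSC replicate 2 and without lung pNSC replicate 2 or 3. The sum of 6 fibroblast markers was 94.3 to 100.9 cpm in Sox2-GFP brain NSCs and 21.5 to 24.7 cpm in Sox2-GFP lung pNSCs, with 3 and 2 of the 6 markers over 3 counts in every sample and 1 marker at 0 in each. Nearly all of this sum was Pdgfra, which oligodendrocyte progenitors also express, at 96.1 ± 3.16 cpm and 21.5 ± 1.43 cpm (SD, n = 3 each), whereas Col1a1 was higher in lung pNSCs (1.33 to 1.67 cpm against 0.259 to 0.461 cpm). The sum of the 5 neural crest and Schwann cell markers was 67.0 to 71.7 cpm in Sox2-GFP brain NSCs and 10.2 to 11 cpm in Sox2-GFP lung pNSCs. In the first experiment the sum of 3 smooth muscle markers was 35.1 to 35.9 cpm in brain NSCs and 1.62 to 2.94 cpm in lung pNSCs, most of it Acta2. The part of these markers' cells in the differences was not tested.

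Whether the lung pNSC effect differed between the experiments was tested as a difference of effects in a fit over all 28 samples. The difference passed both thresholds for 5 of 43 genes, where 14.1% of all genes did (5.89% higher and 8.24% lower). For Fzd10 the effects had opposite signs, both under the limit: 60.9 and 52.4 cpm in lung pNSCs against 74 and 72.7 cpm in brain NSCs of the first experiment, and 31.7, 31.8 and 31.2 cpm against 18.2, 17.9 and 18.5 cpm in Sox2-GFP mice. The difference of log2 fold changes was 1.16 for Fzd10 (adjusted p = 2.67e-14) and -1.19 for Lgr5, which rose less in the Sox2-GFP line (adjusted p = 4.73e-15). The other 3 were Wnt6, Rspo3 and Sfrp5, which are at few counts. For Axin2 the difference was 0.26 (SE 0.06, adjusted p = 0.000378) and for Wnt7b 0.81 (SE 0.07, adjusted p = 1.29e-12). For Wnt4 it was -0.82 (SE 0.32, adjusted p = 0.0316) and for Wif1 -0.76 (SE 0.37, adjusted p = 0.0893). These differences were all inside the limit of 1, and all but that of Wif1 passed on the adjusted p. The lung pNSCs are described as adult in the first experiment and postnatal in the second, and the line, the age of the mice and the experiment cannot be told apart in this difference. Of the 5 calls, that of Wnt6 was lost with DESeq2, with upper-quartile scaling and without the filter. It was also lost in a fit of only the groups compared and with the replicate number as a block.

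In tail pNSCs of the first experiment Tcf7, Fzd4 and Sfrp1 rose against brain NSCs, and Lef1 and Wnt6 fell. Of 43 genes tested, 6 were called, 3 higher and 3 lower, where 10.9% of all genes were (4.31% higher and 6.59% lower). Of the 43, 14 were at or under 3 counts in every sample of both groups. All 6 calls were among the 29 others, where 12.7% of all genes over that floor were called, and the median log2 fold change of these 29 was -0.17 against 0.02. Tcf7 was at 8.91 and 9.83 cpm against 2.94 and 4.09 cpm (log2 1.41, SE 0.15, adjusted p = 3.9e-19). Lef1 went the other way, at 0.286 and 0.101 cpm against 1.72 and 2.53 cpm (log2 -3.46, SE 0.45, adjusted p = 9.27e-14). The pair of related factors thus moved in opposite directions in the same samples, with no overlap between groups for either. Fzd4, a receptor known from retinal blood vessels, was at 51.9 and 51.5 cpm against 23.1 and 21.8 cpm (log2 1.20, SE 0.06, adjusted p = 2.84e-76). Sfrp1 was at 64.2 and 65.8 cpm against 29.3 and 31.3 cpm (log2 1.10, SE 0.07, adjusted p = 2.04e-57). Both were higher in each tail pNSC sample than in each brain NSC sample.

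Wnt6, a ligand of surface ectoderm, was at 0.114 and 0.203 cpm in these tail pNSCs against 3.5 and 2.68 cpm in brain NSCs (log2 -4.20, SE 0.43, adjusted p = 3e-21). Rspo1, an R-spondin, was 30.5-fold lower (counting interval 5.11 to 1242) and is at few counts. Axin2 was lower, at 56.8 and 56.6 cpm against 76.5 and 79.5 cpm, with a log2 fold change of -0.46 (SE 0.05, adjusted p = 5.66e-18) under the limit. Lgr5 was at 35.6 and 37 cpm against 28.7 and 28.1 cpm (log2 0.36, SE 0.07, adjusted p = 6.87e-06), also under it. Wif1 was at 1.54 and 0.861 cpm against 0.761 and 0.487 cpm. Its log2 fold change of 0.92 (SE 0.37, adjusted p = 0.0301) was not called, and without tail pNSC replicate 2 or brain NSC replicate 1 it was 1.30 or 1.27 and was called.

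In Wnt1Cre-mTmG tail pNSCs, Dkk3, Wnt3 and Wif1 led the rises against brain NSCs, and Wnt5b, Fzd1 and Wnt5a the falls. Of 34 genes tested 16 were called, 11 higher and 5 lower, where 18.2% of all genes were (9.16% higher and 9.05% lower). Over the 31 genes that were above 3 counts in a sample of either group, the median log2 fold change was 0.67 against 0.01 over all such genes. Of the 34, 27 were above 3 counts in a sample of each group, and 10 of these were called as higher and 4 as lower. The tail pNSC samples held more counts than the brain NSC samples. Dkk3, a divergent member of the Dickkopf family, was at 12.5, 13.7 and 13.5 cpm against 1.07, 1.06 and 0.929 cpm, a 12.9-fold rise (log2 3.69, SE 0.19, adjusted p = 1.12e-11). Wnt3, a ligand that activates beta-catenin signalling, was at 2.36, 2.25 and 2.57 cpm against 0.0893, 0.387 and 0.507 cpm, a 7.12-fold rise (log2 2.83, SE 0.36, adjusted p = 2.38e-06). Wif1 was at 2.84, 3.36 and 3.37 cpm against 0.179, 0.677 and 0.676 cpm, a 6.18-fold rise (log2 2.63, SE 0.28, adjusted p = 3.09e-07). No brain NSC sample reached the tail pNSC samples for any of the 3. The sum of 6 fibroblast markers was 414 to 422 cpm in these tail pNSCs, with all 6 over 3 counts in every sample, against 33.2 to 33.9 cpm in their brain NSCs, and the sum of 3 smooth muscle markers was 57.5 to 59.4 cpm against 9.7 to 11.9 cpm. Tail cells, with 72249 to 74158 cpm of the fibroblast markers, had 165 and 167 cpm of Dkk3 and 135 and 141 cpm of Wif1. The part of such cells in these rises was not tested.

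Of the 10 Frizzleds in this comparison 3 were called as higher and 2 as lower, where 18.2% of all genes were called, nearly as many higher as lower. Fzd7, a receptor known from stem cells of several tissues, was at 92.5, 93 and 91.4 cpm against 28.3, 28.1 and 25.4 cpm (log2 1.76, SE 0.07, adjusted p = 2.67e-13). Fzd9 was at 106, 102 and 104 cpm against 39.6, 42.6 and 36.5 cpm (log2 1.40, SE 0.06, adjusted p = 2.57e-12). Fzd1 fell from 144, 139 and 135 cpm to 49.6, 52.2 and 52 cpm (log2 -1.44, SE 0.04, adjusted p = 7.35e-15). Fzd6 also rose (log2 1.37, SE 0.29, adjusted p = 0.00048) and Fzd8 fell (log2 -1.29, SE 0.09). Of the ligands, Wnt5a fell from 189, 188 and 187 cpm to 73.5, 71.2 and 74.9 cpm (log2 -1.36, SE 0.05, adjusted p = 4.27e-13). Its relative Wnt5b fell from 15.3, 14.3 and 13 cpm to 4.24, 5.2 and 4.83 cpm (log2 -1.57, SE 0.11, adjusted p = 1.63e-09). The Wnt5a gene (chr14:28504750-28527448) overlaps Gm2670 on the other strand. Wnt4 rose from 1.88, 1.84 and 2.11 cpm to 8.48, 7.36 and 10.7 cpm, a 4.52-fold rise (log2 2.18, SE 0.18, adjusted p = 1.25e-08), and Wnt9a rose by 1.54 on the log2 scale (SE 0.26, adjusted p = 6.4e-05). Wnt6 was called at few counts, 3.21-fold higher (counting interval 1.24 to 10.6), and Rspo1 was 7.09-fold lower (1.87 to 39.6), likewise at few counts. The Wnt6 call was lost without brain NSC replicate 2 (log2 1.43, adjusted p = 0.0538).

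Lgr5 rose 2.29-fold in the same comparison, from 24.9, 24.6 and 23.1 cpm to 54.5, 55.5 and 55.4 cpm (log2 1.19, SE 0.07, adjusted p = 1.9e-10). Axin2 was at 52.7, 52 and 52.9 cpm against 44.2, 46.9 and 44.6 cpm, a log2 fold change of 0.22 (SE 0.05, adjusted p = 0.00165) under the limit. Lef1 was at 0.481, 0.644 and 0.704 cpm against 0.357, 0.0967 and 0.0845 cpm (log2 1.71, SE 0.53, adjusted p = 0.00954). This call rested on brain NSC replicate 3, without which the log2 fold change was 1.36 (adjusted p = 0.0601). Tcf7 was lower, with a log2 fold change of -0.58 (SE 0.17, adjusted p = 0.0059).

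DRG pNSCs were compared with the same brain NSCs. Of 34 genes tested 9 were called, 3 higher and 6 lower, where 9.53% of all genes were (3.12% higher and 6.41% lower). Over the 29 genes that were above 3 counts in a sample of either group, the median log2 fold change was -0.08 against 0.02 over all such genes. Wif1 rose 3.96-fold, to 1.86, 2.36 and 1.92 cpm (log2 1.98, SE 0.34, adjusted p = 0.000123). Fzd9 rose to 95.4, 98.6 and 90.3 cpm (log2 1.26, SE 0.07, adjusted p = 6.38e-11). Rspo3 was also called as higher, at few counts, 4.30-fold (counting interval 1.72 to 12.8), a call lost without brain NSC replicate 1 or 3 or DRG pNSC replicate 1 or 2. Of the 6 falls, 3 were in Wnt-binding inhibitors. Sfrp4 was at 0.593, 0.591 and 0.769 cpm against 3.39, 2.61 and 3.21 cpm (log2 -2.24, SE 0.32, adjusted p = 1.9e-05). Sfrp2 was at 3.05, 2.56 and 2.69 cpm against 9.47, 8.12 and 6.84 cpm (log2 -1.55, SE 0.17, adjusted p = 9.2e-07). Sfrp1 was at 13, 8.77 and 16 cpm against 31.3, 31.2 and 29.3 cpm (log2 -1.28, SE 0.12, adjusted p = 1.91e-07). Dkk3 was 16.5-fold lower (counting interval 4.23 to 142), and Wnt5b fell by 1.31 on the log2 scale (SE 0.13, adjusted p = 1.62e-07). Fzd5, a receptor known from eye and gut, fell from 16.6, 15.1 and 17.2 cpm to 7.29, 7.19 and 7.69 cpm (log2 -1.14, SE 0.10, adjusted p = 6.35e-08).

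Lgr5 in DRG pNSCs was at 37.3, 41.1 and 38.7 cpm (log2 0.69, SE 0.08, adjusted p = 1.86e-06) and Axin2 at 54.1, 59.2 and 51.8 cpm (log2 0.28, SE 0.06, adjusted p = 0.000547), both above each brain NSC sample and both under the limit. Lef1 (log2 1.01, SE 0.67, adjusted p = 0.236) and Tcf7 (log2 0.29, SE 0.17, adjusted p = 0.173) did not pass the test. Among the fibroblast markers, Col3a1 was at 15.1 cpm in DRG pNSCs against 4.19 cpm in their brain NSCs, whereas Pdgfra (14.2 against 22.4 cpm) and Col1a2 (0.0641 against 3.45 cpm) were lower. The sum of the 5 neural crest and Schwann cell markers was 6.4 to 7.03 cpm in DRG pNSCs and 22.0 to 22.9 cpm in their brain NSCs. The part of these markers' cells in the differences was not tested.

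**Figure D4:**
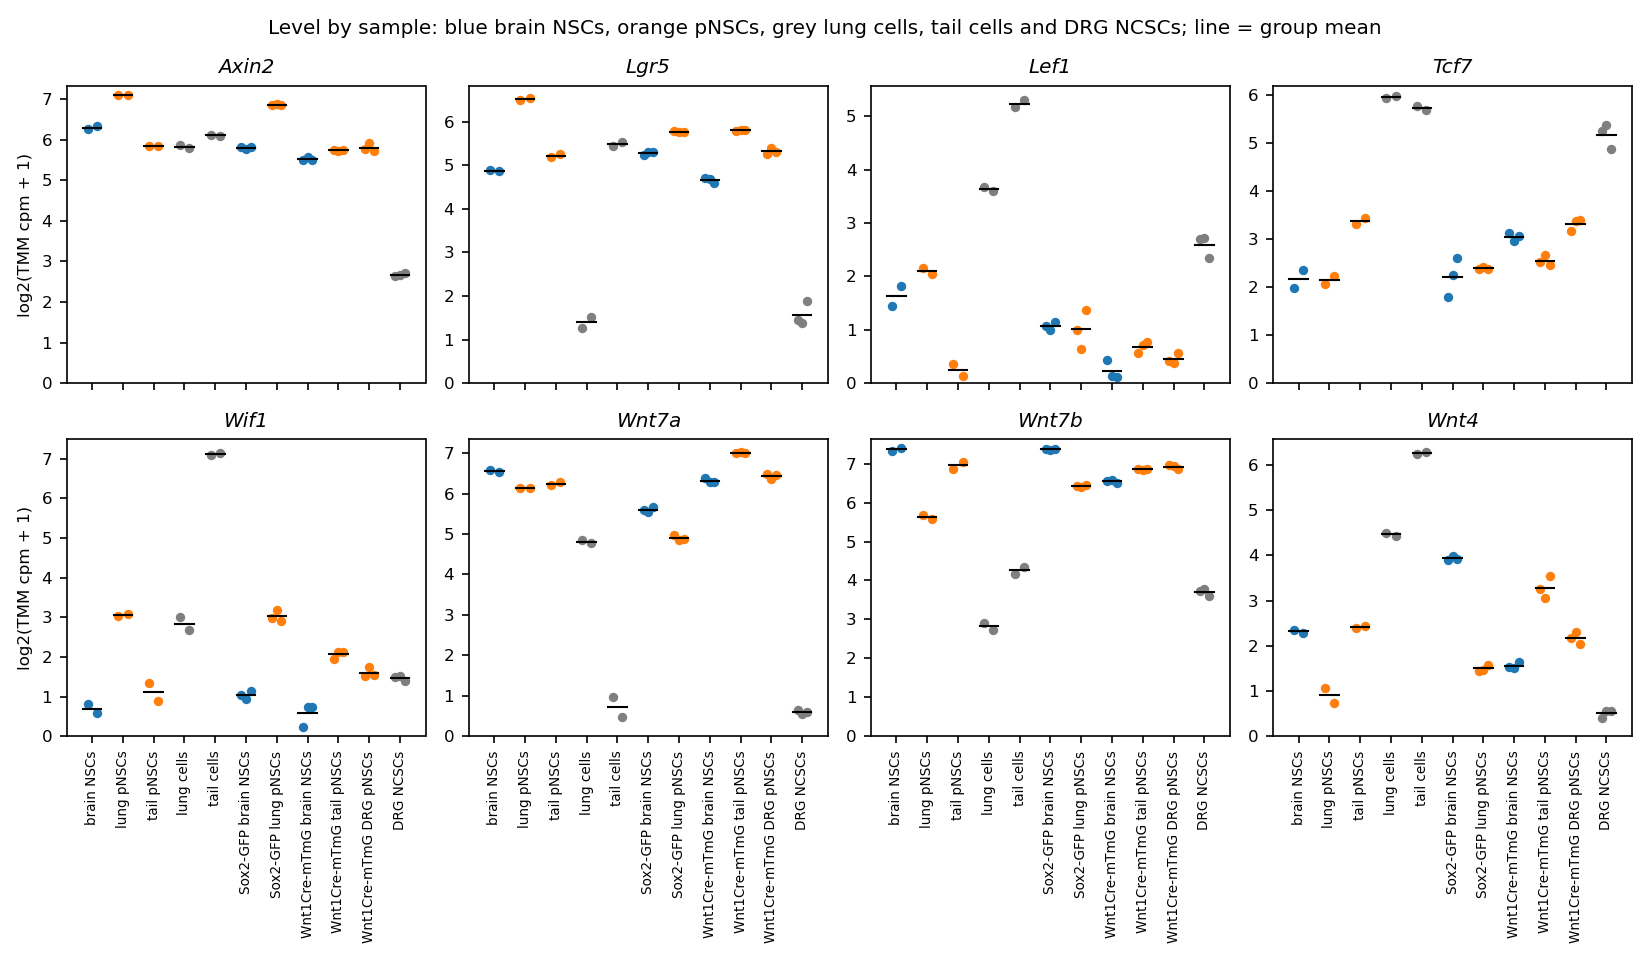
Level of 8 genes in each of the 28 samples as log2(cpm + 1), with 1 point per sample and a line at the group mean. Blue points are brain NSCs, orange points pNSCs and grey points lung cells, tail cells and NCSCs. Among the neural groups the mean of Axin2, Lgr5 and Wif1 is highest in lung pNSCs of the first experiment, and Wnt7a is under 1 cpm in tail cells and NCSCs.

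The values of Wif1 and Lgr5 are set side by side here for the 5 comparisons, of which the pair in the first experiment and the pair in the Wnt1Cre-mTmG line each share their brain NSC samples. The log2 fold change of Wif1 was 3.53 in lung pNSCs and 0.92 in tail pNSCs of the first experiment, 2.78 in Sox2-GFP lung pNSCs, 2.63 in Wnt1Cre-mTmG tail pNSCs and 1.98 in DRG pNSCs, and it was called in 4 of the 5. That of Lgr5 was 1.68, 0.36, 0.50, 1.19 and 0.69 in the same order, and it was called in 2 of the 5. Fzd2 was also higher in all 5 (log2 0.34 to 0.74) but called in none. Lower in all 5 were Wnt5a (log2 -1.36 to -0.10, called in 1), Wnt5b (-1.57 to -0.56, called in 2) and Fzd5 (-1.14 to -0.03, called in 1). Without the limit on the fold, 21 of 43 genes passed the test in tail pNSCs and 19 of 43 in lung pNSCs of the first experiment, where 49.1% and 40.3% of all genes did. It was 26 of 38 in Sox2-GFP lung pNSCs, 26 of 34 in Wnt1Cre-mTmG tail pNSCs and 20 of 34 in DRG pNSCs, where 65.5%, 65.5% and 45.9% of all genes passed. For the differences of effects it was 15 (lung) and 22 (tail) of 43, where 46.9% and 48.7% of all genes passed.

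The tail pNSC effect differed between the first experiment and the Wnt1Cre-mTmG line for 17 of 43 genes, 11 higher and 6 lower in the latter, where 16% of all genes passed (8.96% higher and 7.05% lower). Fzd9 shows the size of this: 37.5 and 40.3 cpm in tail pNSCs against 53.5 and 54.6 cpm in brain NSCs of the first experiment, where the Wnt1Cre-mTmG tail pNSCs were above their brain NSCs. The difference of log2 fold changes was 1.87 (adjusted p = 2.27e-21) for Fzd9, 1.49 (adjusted p = 9.49e-17) for Fzd7, 2.05 (adjusted p = 4.4e-09) for Wnt4 and 3.28 (adjusted p = 8.21e-08) for Dkk3. It was -1.26 (adjusted p = 1.2e-18) for Wnt5a, -1.32 (adjusted p = 3.92e-12) for Sfrp1 and -2.00 (adjusted p = 4.75e-08) for Tcf7. The mouse line, the way the cells were derived and the experiment cannot be told apart here.

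The next question was how DRG NCSCs, which derive from the neural crest, differed from the neural groups of the Wnt1Cre-mTmG experiment. As the NCSCs came from adult wild-type mice and the pNSCs from postnatal Wnt1Cre-mTmG mice, cell type, age and mouse line cannot be told apart here. Wnt7a, Fzd9 and Fzd10 were near 1 cpm or below in NCSCs, whereas Wnt16, Wnt10b and Wnt6 were higher there than in the neural groups of the experiment. Against Wnt1Cre-mTmG brain NSCs 30 of 34 genes tested were called, 15 higher and 15 lower, where 36.9% of all genes were (22.1% higher and 14.8% lower). Of the 34, 27 were above 3 counts in a sample of each group, and 9 of these were called as higher and 14 as lower. Without NCSC replicate 3 the count was 29, and the call lost was the fall of Wnt3 (log2 -1.42, adjusted p = 0.0717, against -1.88 with all samples). The Wnt3 call was also lost without brain NSC replicate 2 (log2 -1.77, adjusted p = 0.065) or replicate 3 (log2 -1.39, adjusted p = 0.158). Wnt7a was at 0.556, 0.473 and 0.525 cpm in NCSCs against 82.4, 76.5 and 77.1 cpm in brain NSCs, 149-fold lower (log2 -7.22, SE 0.10, adjusted p = 2.85e-20). Tail pNSCs had 127, 129 and 128 cpm, 242-fold over NCSCs (log2 7.92, SE 0.09, adjusted p = 3.15e-21), and DRG pNSCs 88.8, 80.7 and 87.4 cpm, 162-fold over them (log2 7.34, SE 0.10, adjusted p = 2.02e-20). DRG pNSCs and DRG NCSCs did not overlap in this ligand, whose promoter is shown above.

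Fzd10 was at 0.833, 0.804 and 0.758 cpm in NCSCs against 56, 54.9 and 57.6 cpm in brain NSCs (log2 -6.11, SE 0.10, adjusted p = 6.5e-19). Fzd9 was at 0.556, 0.756 and 1.11 cpm in NCSCs against 39.6, 42.6 and 36.5 cpm (log2 -5.63, SE 0.13, adjusted p = 3.2e-17). Tail and DRG pNSCs were above NCSCs for both receptors, by log2 7.03 (SE 0.11) and 6.89 (SE 0.11) for Fzd9 and by 5.79 (SE 0.10) and 5.56 (SE 0.11) for Fzd10. Fzd1 went the other way, at 399, 401 and 395 cpm in NCSCs against 135 to 144 cpm in brain NSCs (log2 1.53, SE 0.04, adjusted p = 2.03e-16). Over the 10 Frizzleds, 3 were called as higher and 5 as lower in NCSCs than in brain NSCs, where 36.9% of all genes were called. Of the 11 ligands tested only 7 were above 3 counts in a sample of each group, and of these 1 was called as higher and 5 as lower.

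Beside Wnt5a (13.3, 14.9 and 11 cpm) and Wnt7b (12.3, 12.8 and 11.1 cpm), which were lower than in the neural groups, NCSCs carried Wnt16, Wnt10b and Wnt6. Wnt16, a ligand known from bone, was at 27.9, 27 and 34.3 cpm in NCSCs and at most 0.142 cpm in any neural sample, 491-fold over Wnt1Cre-mTmG brain NSCs by counts (counting interval 136 to 4057). Wnt10b, a ligand known from fat, hair and bone, was at 15.5, 17 and 17.4 cpm in NCSCs and at 0 counts in brain NSCs, at least 61.4-fold higher against a floor of 3 counts per library. Wnt6 was at 10, 10.9 and 8.92 cpm, 67.0-fold over brain NSCs by counts (counting interval 28.5 to 207). None of the 3 overlapped with the neural samples of that experiment, although Wnt6 reached 3.5 cpm in brain NSCs of the first. Wnt9a had a mean of 5.37 cpm in NCSCs and of at most 2.28 cpm in any neural group. Against DRG pNSCs, Wnt16 was at least 106-fold, Wnt10b at least 59.4-fold and Dkk2, a Dickkopf, at least 9.48-fold higher in NCSCs. Against tail pNSCs the ratios by counts were 633 (counting interval 216 to 3071) for Wnt16, 1067 (191 to 42183) for Wnt10b and 85.1 (23.2 to 708) for Dkk2. In these comparisons 26 (tail pNSCs) and 25 (DRG pNSCs) of 34 genes were called, 14 and 12 of them higher in the pNSCs. Above 3 counts in a sample of each group were 29 and 27 of the 34, and of these 13 were called as higher and 8 as lower in tail pNSCs, and 12 as higher and 7 as lower in DRG pNSCs. Of all genes 37.9% (15.3% higher and 22.6% lower) and 38.3% (15.1% higher and 23.3% lower) were called.

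The readouts of the pathway differed in direction among themselves in NCSCs. Axin2 was at 5.28, 5.34 and 5.54 cpm in NCSCs, lower than brain NSCs by 3.06 on the log2 scale (log2 -3.06, SE 0.07, adjusted p = 6.28e-17), and the tail and DRG pNSCs were higher than NCSCs by 3.28 (SE 0.07, adjusted p = 8.84e-18) and 3.34 (SE 0.07, adjusted p = 1.41e-17). Lgr5 was at 1.71, 1.61 and 2.68 cpm, likewise lower than brain NSCs (log2 -3.61, SE 0.12, adjusted p = 7.93e-15), with pNSCs higher than NCSCs by 4.80 (SE 0.10) and 4.30 (SE 0.11). Lef1 was higher in NCSCs, at 5.51, 5.62 and 4.08 cpm (log2 4.78 over brain NSCs, SE 0.34, adjusted p = 6.26e-10), and so was Tcf7, at 37.1, 40.7 and 28.6 cpm (log2 2.29, SE 0.13, adjusted p = 2.24e-11). Tail and DRG pNSCs were lower than NCSCs in Lef1 (log2 -3.07, SE 0.22, and -3.77, SE 0.30) and in Tcf7 (log2 -2.88, SE 0.12, and -2.00, SE 0.13). For Axin2, Lgr5, Lef1 and Tcf7 every NCSC sample lay outside the range of the neural samples of the experiment. Without NCSC replicate 3 the log2 fold changes over brain NSCs were -3.08 for Axin2, -3.84 for Lgr5, 4.90 for Lef1 and 2.42 for Tcf7. Those of tail and DRG pNSCs over NCSCs were then 3.30 and 3.36 for Axin2, 5.04 and 4.53 for Lgr5, -3.19 and -3.89 for Lef1 and -3.00 and -2.13 for Tcf7. Wif1 was at 1.81, 1.84 and 1.63 cpm, higher than brain NSCs (log2 1.79, SE 0.32, adjusted p = 6.08e-05), with pNSC differences under the limit (0.84, SE 0.18, adjusted p = 0.000429 for tail and 0.19, SE 0.23, adjusted p = 0.44 for DRG). NCSCs also had 2800 to 3448 cpm of the fibroblast markers and 543 to 573 cpm of 3 leukocyte markers, and the part of such cells in these values was not tested.

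Last, pNSCs were compared with cells of the tail or lung, which hold the tissue's own mixture of cell types. In tail pNSCs against tail cells 35 of 43 genes were called, 3 higher and 32 lower, where 46.7% of all genes were (14.1% higher and 32.6% lower). A gene that passed the filter on low counts only through tail or lung cells could hardly be higher in tail pNSCs. Of the 43, 16 were at or under 3 counts in every tail pNSC sample. Of the 27 above that in a sample of each group, 3 were called as higher and 16 as lower. In lung pNSCs against lung cells 35 of 43 were called, 10 higher and 25 lower, where 55% of all genes were (20.2% higher and 34.9% lower). Of the 28 that were above 3 counts in a sample of each group, 10 were called as higher and 13 as lower. In Sox2-GFP lung pNSCs against the same lung cells 32 of 38 were called, 8 higher and 24 lower, where 56.3% of all genes were (21.3% higher and 34.9% lower), and of the 28 above 3 counts in a sample of each group 8 were called as higher and 14 as lower. Both lung comparisons share the lung cell samples of the first experiment, so they are not independent, and for Sox2-GFP lung pNSCs the mouse line, the experiment and, by the methods, the age of the mice differ from those lung cells as well and cannot be told apart from the cell type.

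What rose in tail pNSCs was Wnt7a, Wnt7b and Fzd3. Wnt7a was at 73.4 and 76.5 cpm in tail pNSCs against 0.955 and 0.383 cpm in tail cells (log2 6.67, SE 0.14). Fzd3 was at 318 and 309 cpm against 34.8 and 32.7 cpm (log2 3.13, SE 0.05). Wnt7b was at 116 and 131 cpm against 17 and 19.3 cpm (log2 2.69, SE 0.06). Of 17 ligands tested 14 fell, but only 9 of the 17 were above 3 counts in a sample of each group, and of these 2 were called as higher and 6 as lower. The other ligands tested were at or under 3 counts in every tail pNSC sample, so that a rise was hardly possible, and 32.6% of all genes were called as lower. Wnt10b was at 58.6 and 51.9 cpm in tail cells and 0 in tail pNSCs, at least 342-fold lower, Wnt10a, a ligand of hair and tooth, was at 25.4 and 26.7 cpm and at least 161-fold lower, and Wnt3a was at least 41.1-fold lower. Of the 9 Frizzleds above 3 counts in a sample of each group 1 rose and 4 fell, among them Fzd1, at 48.3 and 48.8 cpm against 213 and 211 cpm. Over the same floor 3 of 4 secreted inhibitors and the 1 Dickkopf fell. Dkk2 was at 154 and 159 cpm in tail cells and at least 968-fold lower in tail pNSCs. Lef1 (35 and 38.7 cpm in tail cells, log2 -7.65, SE 0.23), Wif1 (log2 -6.94, SE 0.12) and Tcf7 (54.2 and 50.7 cpm in tail cells, log2 -2.57, SE 0.09) were lower in tail pNSCs as well. Axin2 (68.7 and 67.8 cpm in tail cells) and Lgr5 (42.7 and 45.4 cpm) were close to their tail pNSC levels, with log2 fold changes of -0.35 (SE 0.05) and -0.36 (SE 0.07). Tail cells held 72249 to 74158 cpm of the fibroblast markers, 767 to 778 cpm of the neural crest and Schwann cell markers, 728 to 747 cpm of the endothelial markers, 375 to 378 cpm of the epithelial markers, 350 to 361 cpm of the smooth muscle markers and 68.2 to 71.3 cpm of the leukocyte markers. In tail pNSCs these sums were at most 11.3, 3.85, 4.86, 0.355, 50.1 and 3.60 cpm. Their part in the falls was not tested.

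In the lung comparisons Fzd9, Fzd10 and Lgr5 led the rises. Fzd9 was at 58.3 and 55.6 cpm in lung pNSCs and 170, 172 and 170 cpm in Sox2-GFP lung pNSCs, against 0.38 and 0.187 cpm in lung cells (log2 7.55, SE 0.18, and 9.15, SE 0.10). Fzd10 was at 60.9 and 52.4 cpm and at 31.7, 31.8 and 31.2 cpm, against 0.217 and 0.436 cpm (log2 7.41, SE 0.17, and 6.58, SE 0.18). Lgr5 was at 1.41 and 1.87 cpm in lung cells, 54.6-fold below lung pNSCs (log2 5.77, SE 0.12) and lower than Sox2-GFP lung pNSCs by a log2 fold change of 5.02 (SE 0.11). All 3 genes were at 1.87 cpm or less in lung cells, while in tail cells they stood at 31.7 cpm or more. Axin2 was at 57.4 and 54.5 cpm in lung cells and higher in lung pNSCs of both lines (log2 1.25, SE 0.05, adjusted p = 1.62e-139, and log2 1.02, SE 0.04, adjusted p = 2.21e-147). With DESeq2 the latter was 0.94 and was no longer called. Wnt7a, at 27.8 and 26.5 cpm in lung cells, was higher in lung pNSCs of the first experiment (log2 1.32, SE 0.07, adjusted p = 1.63e-86), and in those of Sox2-GFP mice the difference did not pass the test (log2 0.06, SE 0.06, adjusted p = 0.34).

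The falls in the lung comparisons were led by Wnt3a, at 27.2 and 28.7 cpm in lung cells and 0 in lung pNSCs, at least 180-fold lower in the first experiment and at least 201-fold lower in Sox2-GFP mice. Wnt2, a ligand of lung mesenchyme, was at 21.5 and 20.8 cpm in lung cells and at least 137-fold lower in lung pNSCs. Wnt10b was at 15.2 and 16.8 cpm and at least 103-fold and 115-fold lower. Dkk3 was at 120 and 114 cpm in lung cells and lower in Sox2-GFP lung pNSCs by 9.40 on the log2 scale (log2 -9.40, SE 0.12). Lef1 (11.8 and 11.2 cpm in lung cells) was lower in both lines (log2 -1.83, SE 0.16, and -3.45, SE 0.17), as was Tcf7 (60.3 and 62.4 cpm in lung cells, log2 -4.20, SE 0.11, and -3.87, SE 0.08). Lung cells held 4150 to 4249 cpm of the fibroblast markers and 4122 to 4145 cpm of the leukocyte markers, 11336 to 11429 cpm of 5 epithelial markers and 3298 to 3378 cpm of 3 endothelial markers. In any lung pNSC sample these sums were at most 24.7, 3.95, 0.178 and 3.20 cpm. Their part in the falls was not tested.

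Dickkopfs were low in neural cells. The 4 genes together reached at most 1.11 cpm in any neural group mean except Wnt1Cre-mTmG tail pNSCs, with 13.3 cpm, nearly all of it Dkk3, against 11.9 cpm in NCSCs, 119 cpm in lung cells and 324 cpm in tail cells. R-spondins, which amplify Wnt signalling through Lgr5, were all under 1 cpm in every neural group mean. Their receptor Lgr5 was at 24.2 to 91.4 cpm in the same groups. Among the secreted inhibitors, Sfrp1 ranged over the neural groups from 1.61 cpm in Sox2-GFP lung pNSCs to 65 cpm in tail pNSCs of the first experiment. Wnt1, the ligand whose promoter drives Cre in the Wnt1Cre-mTmG line, had a mean of at most 0.0731 cpm in any neural group.

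Other genes of the pathway were counted from a list of 59 (co-receptors, ligand processing, the destruction complex, feedback inhibitors and targets). In lung pNSCs against brain NSCs 8 of 59 were called, all higher, in the first experiment (8.71% of all genes were called), and 12 of 59 (5 higher, 7 lower) in Sox2-GFP mice (15.7% of all genes). In tail pNSCs it was 8 of 59 (5 higher, 3 lower; 10.9% of all genes) and, in Wnt1Cre-mTmG mice, 12 of 54 tested (8 higher, 4 lower; 18.2% of all genes). In DRG pNSCs it was 6 of 54 (4 higher, 2 lower; 9.53% of all genes), and in NCSCs against brain NSCs 22 of 54, 11 in each direction (36.9% of all genes). Sostdc1, a secreted Wnt and BMP antagonist, was at 13.6 cpm in Sox2-GFP lung pNSCs against 0.575 cpm in brain NSCs (log2 4.51, SE 0.17, adjusted p = 1.29e-152). Rnf43, a feedback ligase that removes Frizzleds, was at 8.85 cpm against 1.19 cpm in lung pNSCs of the first experiment (log2 2.88, SE 0.20, adjusted p = 7.76e-44). It fell in tail pNSCs of the first experiment, to 0.0825 cpm, 14.8-fold by counts (counting interval 4.77 to 74.3, adjusted p = 4.86e-09). It also fell in Wnt1Cre-mTmG tail pNSCs, from 2.81 to 0.0955 cpm, 30.6-fold by counts (counting interval 13.6 to 85.5, adjusted p = 4.47e-08). Apcdd1, a membrane-bound Wnt inhibitor, was at 281 cpm against 12.4 cpm in Wnt1Cre-mTmG tail pNSCs (log2 4.51, SE 0.07, adjusted p = 4.63e-18) and fell from 179 cpm to 20.5 cpm in Sox2-GFP lung pNSCs (log2 -3.12, SE 0.04). Nkd2, a cytoplasmic feedback inhibitor, was at 437 cpm in NCSCs against 1.04 cpm in brain NSCs (log2 8.75, SE 0.09). DRG pNSCs lay far below NCSCs in Nkd2 (2.72 cpm, log2 -7.34, SE 0.08). Tnfrsf19, a target and receptor of the tumour necrosis factor family, was at 3.04 cpm in NCSCs against 87.2 cpm in brain NSCs (log2 -4.84, SE 0.08) and 65.3 cpm in DRG pNSCs. Draxin, a secreted Wnt antagonist and axon guidance protein, was at 106 cpm in Wnt1Cre-mTmG tail pNSCs against 1.28 cpm in NCSCs (log2 6.35, SE 0.08).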

How the data were processed

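RNA was sequenced single-end on a NextSeq500 after polyA selection. According to the submitters' processing notes, reads were aligned with HISAT2 to GRCm38 and processed with Cufflinks and HTSeq (versions not given there), and the values deposited by the authors are raw counts per gene, without normalization. The strand setting and the counting mode are not given in the sources used here. All 46 genes matched GENCODE symbols on GRCm38, and 17 of them overlap another gene (5 on the same strand, 16 on the other), so reads of overlapping or antisense genes cannot be told apart in their counts.

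All 28 samples were assigned to groups from their titles, and 0 count columns were left unmapped. Counts were tested with edgeR 4.0.16 in R 4.3.3 (filterByExpr with a minimum count of 10 and a minimum total of 15, TMM scaling, quasi-likelihood test, two-sided, Benjamini-Hochberg adjustment over all genes tested) in 1 fit per experiment over all its groups. The fits held 16948 genes in the first experiment, 16234 in the Sox2-GFP experiment and 14448 in the Wnt1Cre-mTmG experiment, and the fit of all 28 samples for differences of effects held 17393. Calls needed an adjusted p below 0.05 and a log2 fold change of 1 or more in size. Where an adjusted p was too small to be represented, or is not printed, the standard error (SE) is given. On simulated counts all 200 changed genes were recovered in each experiment, with 0 false calls for tail pNSCs, 2 for Wnt1Cre-mTmG tail pNSCs and 1 for Sox2-GFP lung pNSCs. The planted changes were of equal size, well past the limit, and in genes away from the lowest levels. Every gene was given the same spread. The simulation thus says nothing of changes near the limit or of genes at few counts. Folds against groups at 0 were computed against a floor of 3 counts per library and are lower bounds. Ratios of very low counts carry 95% exact intervals, which cover counting error only. Levels between genes were compared per kb of exon.

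The genes, the list of 59 pathway genes and the marker lists were chosen with earlier results of these data known. Genes named in each comparison were the 3 largest rises and falls past both thresholds with at least 1 cpm in the higher group, together with Axin2, Lef1, Tcf7, Lgr5 and Wif1, and the other calls are given more briefly. Alternatives were DESeq2 1.42.0, upper-quartile scaling, no filter, no limit on the fold, a fit of only the groups compared, the replicate number as a block and leaving out each replicate. Figures were drawn with matplotlib 3.10.9.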

Additional observations from a re-analysis of the deposited data

Results flagged for a closer look

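The genes here were set apart because the effect of pNSCs over brain NSCs differed between mouse lines in edgeR's test of the difference itself, over all 28 samples with adjustment over all genes tested. Values are differences of log2 fold changes, the reporter line named minus the first experiment, and in none of them can the line, the derivation of the cells and the experiment be told apart, nor, for the lung, the age.

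For lung pNSCs (Sox2-GFP minus first experiment) the difference was 1.16 for Fzd10 (adjusted p = 2.67e-14), -1.19 for Lgr5 (adjusted p = 4.73e-15), 1.43 for Wnt6 (adjusted p = 0.0485), -6.40 for Rspo3 (adjusted p = 9.16e-06) and -8.67 for Sfrp5 (adjusted p = 0.000309). The Wnt6 call was lost under 5 other settings and in 7 of 10 fits that left out a replicate. Its adjusted p lies near the threshold. The values of Rspo3 and Sfrp5 rest on counts near 0 in several groups, and their size depends on the prior count of the fit.

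For tail pNSCs (Wnt1Cre-mTmG minus first experiment) the ligands differed by 3.37 for Wnt3 (adjusted p = 2.67e-07), 2.05 for Wnt4 (adjusted p = 4.4e-09), 5.84 for Wnt6 (adjusted p = 3.07e-09), 1.01 for Wnt7a (adjusted p = 1.2e-14) and 2.71 for Wnt9a (adjusted p = 9.26e-05), and by -1.26 for Wnt5a (adjusted p = 1.2e-18) and -1.02 for Wnt5b (adjusted p = 1.1e-05). Wnt7a and Wnt5b sat on the limit. Several fits that left out a replicate lost these calls, with values such as 0.97 for Wnt7a and -0.95 for Wnt5b. Among the receptors the difference was 3.04 for Fzd6 (adjusted p = 0.00448), 1.49 for Fzd7 (adjusted p = 9.49e-17), 1.87 for Fzd9 (adjusted p = 2.27e-21), -1.21 for Fzd1 (adjusted p = 3.36e-17) and -1.38 for Fzd8 (adjusted p = 9.25e-13). Without brain NSC replicate 1 of the first experiment the difference for Fzd6 was 1.61, and its call was lost. Of the Dickkopfs, Dkk3 differed by 3.28 (adjusted p = 8.21e-08). Of the Wnt-binding inhibitors, Wif1 differed by 1.70 (adjusted p = 0.00614) and Sfrp1 by -1.32 (adjusted p = 3.92e-12). Without brain NSC replicate 1 of the first experiment Wif1 differed by 1.35, and its call was lost as well. The pair of effectors went in opposite directions, by 5.17 for Lef1 (adjusted p = 4.92e-07) and -2.00 for Tcf7 (adjusted p = 4.75e-08). The values of Wnt3, Wnt6 and Lef1 rest on few counts in Wnt1Cre-mTmG brain NSCs. Those of Wnt6 and Lef1 rest on few counts in tail pNSCs of the first experiment as well.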

How the results depend on the processing

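Over 108 results on 28 named genes, 1210 alternative values were computed, of which 1180 kept their direction and their side of the thresholds, 9 lost a call, 15 gained one and 6 changed sign. Of the 15 gains, 13 came from removing the limit on the fold. A gene that fell to the filter in an alternative fit had no value and is not in these counts. Lef1 in Wnt1Cre-mTmG tail pNSCs lost its call in this way in a fit of only the groups compared. Without the limit on the fold, the genes called rose to 21 (tail pNSCs) and 19 (lung pNSCs) in the first experiment, 26 (Wnt1Cre-mTmG tail pNSCs), 20 (DRG pNSCs), 26 (Sox2-GFP lung pNSCs, all against brain NSCs) and 15 (difference of the lung effects). Tcf7 in lung pNSCs against brain NSCs changed sign without brain NSC replicate 2 (0.20) and without lung pNSC replicate 1 (0.06), with a range of -0.27 to 0.20 over replicates left out. In Sox2-GFP mice Tcf7 changed sign without brain NSC replicate 1 (-0.033, range -0.033 to 0.40), and Lef1 without brain NSC replicate 3 (0.032) or lung pNSC replicates 1 (0.0028) or 2 (0.27), with a range of -0.48 to 0.27. The cause was not tested. None of these had been called.

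Leaving out each replicate in turn gave 7 genes for tail pNSCs against brain NSCs (6 with all samples), 5 to 6 for lung pNSCs, 15 to 17 for Wnt1Cre-mTmG tail pNSCs, 8 to 9 for DRG pNSCs, 9 to 11 for Sox2-GFP lung pNSCs, 29 to 30 for NCSCs against brain NSCs, 26 to 27 and 25 to 25 for tail and DRG pNSCs against NCSCs, 34 to 35 and 35 to 35 for tail and lung pNSCs against tissue cells, 32 to 33 for Sox2-GFP lung pNSCs against lung cells, and 4 to 7 (lung) and 15 to 17 (tail) for the differences of effects. Where 1 sample of a group was left, it was assumed to vary like the other groups. Over all genes, same-numbered samples did not deviate together (r from -0.011 to 0.0519 over 28 pairs). Pairing that touches only some genes is not excluded by this. With the replicate number as a block the counts were unchanged except 33 instead of 32 for Sox2-GFP lung pNSCs against lung cells and 4 instead of 5 for the difference of the lung effects. A fit of only the groups compared, in which fewer genes passed the filter, called 13 instead of 16 genes for Wnt1Cre-mTmG tail pNSCs (without Lef1, Wnt6 and Rspo1), 8 instead of 11 for Sox2-GFP lung pNSCs (without Dkk3, Rspo4 and Wnt2), 8 instead of 9 for DRG pNSCs (without Rspo3) and 29 instead of 30 for NCSCs (without Wnt3), all against brain NSCs. For lung pNSCs against brain NSCs that fit and DESeq2 each called 4 instead of 6, without Fzd6 and Sfrp1. Depth limits statements on genes under 0.130 to 0.295 cpm.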
